A study of Mus musculus with 6 samples.

Results

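The epidermal identity transcription factors described here are 9 genes, chosen by name among the 38258 genes of the deposited table: *Trp63*, *Klf4*, *Klf5*, *Grhl1*, *Grhl3*, *Ovol1*, *Zfp750*, *Tfap2a* and *Tfap2c*. All 9 were found, each as a single row. They were measured by RNA-seq in interfollicular epidermal cells of newborn mouse back skin (postnatal day 0), sorted as positive for EpCAM and Sca1 and high for α6-integrin, a gate that enriches for basal progenitors. The 3 control libraries carry only the genotype label Control, and the 3 others are labelled Eed -/- Ring1a-/- Ring1b-/-. Eed belongs to the complex that methylates lysine 27 of histone H3 (Polycomb repressive complex 2), whereas Ring1a and Ring1b ubiquitinate histone H2A within Polycomb repressive complex 1. The comparison asks what changes when both complexes are disrupted. The labels name neither the Cre driver nor the alleles that the controls carry, and do not say whether the replicates are separate animals, so p-values measure only library-to-library spread, possibly technical.

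Stratified epidermis is built by basal cells that divide and then differentiate upwards into spinous, granular and cornified layers. p63, the product of *Trp63*, is required for the stratified lineage and for the basal state. AP-2α and AP-2γ (*Tfap2a*, *Tfap2c*) act beside p63 in the commitment of surface ectoderm and drive basal keratin genes, and Klf5 is a factor of proliferating basal cells in many epithelia. Klf4, Zfp750, Grhl1 and Grhl3 promote later differentiation and the barrier, and Ovol1 restrains proliferation as cells leave the basal layer.

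Since Polycomb complexes favour promoters rich in CG dinucleotides, RefSeq promoter sequences (GRCm38.p6, 250 bases before to 50 after the start) were read where the reference table held them, for 4 of the 9 members. Those of *Klf4*, *Grhl1* and *Grhl3*, which rose, and of *Tfap2a*, which fell, are given 5′ to 3′ with CG dinucleotides in capitals.
*Klf4*, chr4:55532426-55532725, minus strand: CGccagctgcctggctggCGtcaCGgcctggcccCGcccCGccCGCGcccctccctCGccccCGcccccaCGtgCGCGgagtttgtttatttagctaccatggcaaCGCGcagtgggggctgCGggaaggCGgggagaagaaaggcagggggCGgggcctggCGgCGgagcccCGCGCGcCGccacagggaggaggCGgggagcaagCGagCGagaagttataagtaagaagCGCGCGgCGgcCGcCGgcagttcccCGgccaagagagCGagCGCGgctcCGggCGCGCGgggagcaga
*Grhl1*, chr12:24572037-24572336, plus strand: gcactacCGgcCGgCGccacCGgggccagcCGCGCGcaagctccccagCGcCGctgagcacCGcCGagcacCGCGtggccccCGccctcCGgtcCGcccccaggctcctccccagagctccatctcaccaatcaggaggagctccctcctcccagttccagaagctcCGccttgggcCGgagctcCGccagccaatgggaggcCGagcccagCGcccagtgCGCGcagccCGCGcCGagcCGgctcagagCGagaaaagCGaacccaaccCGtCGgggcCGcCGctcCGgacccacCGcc
*Grhl3*, chr4:135573583-135573882, minus strand: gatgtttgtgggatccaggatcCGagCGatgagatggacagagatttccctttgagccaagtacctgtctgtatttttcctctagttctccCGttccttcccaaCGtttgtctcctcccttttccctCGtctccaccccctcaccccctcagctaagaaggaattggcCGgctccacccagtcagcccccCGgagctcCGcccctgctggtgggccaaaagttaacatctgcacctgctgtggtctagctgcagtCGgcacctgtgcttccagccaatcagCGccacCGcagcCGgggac
*Tfap2a*, chr13:40734871-40735170, minus strand: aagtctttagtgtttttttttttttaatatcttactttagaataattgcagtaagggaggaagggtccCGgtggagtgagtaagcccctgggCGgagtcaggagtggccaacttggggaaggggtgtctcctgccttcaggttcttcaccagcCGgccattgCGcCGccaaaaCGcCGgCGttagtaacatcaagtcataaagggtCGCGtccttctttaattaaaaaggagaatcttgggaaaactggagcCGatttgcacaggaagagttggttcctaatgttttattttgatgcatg

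The *Klf4* and *Grhl1* promoters hold 40 and 35 CG dinucleotides in these 300 bases, more than 96.1% and 93.0% of the 32851 RefSeq promoters, whose median is 7. The *Grhl3* promoter, of the gene that rose most, holds 12, and the *Tfap2a* promoter 11. The second starts listed for *Grhl1* and *Tfap2a* hold 0 and 15. Both *Tfap2a* windows and the second of *Grhl1* lie inside the gene, away from its listed 5′ end. The windows printed for *Klf4*, *Grhl1* and *Grhl3* span that end, so the *Tfap2a* count is for an unlike kind of start. The AP-2 motif GCCNNNGGC, which reads the same on both strands, matches once in the *Klf4* window and once in that of *Grhl1*, and in 16.6% of all promoters. The grainyhead motif AACCGGTT (0.146% of promoters), the Krüppel-like motif GGGTGTGG on either strand (3.56%) and the TATA box letters TATAAA on either strand (13.6%) match in none of the 6 windows. A match is a description of letters and not a bound site. The promoters of *Trp63*, *Klf5*, *Ovol1*, *Zfp750* and *Tfap2c* are not shown.

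The deposited values are normalized counts, and they summed to between 21896285 and 29805729 per library. Ribosomal RNA held 22.5% to 36.6% of the normalized count in the controls and 27.6% to 31.4% in the labelled knockouts. Of the targeted genes, *Ring1* went against the labels, with 11.8, 8.72 and 23.1 normalized counts in control libraries but 67.7, 104 and 112 in those labelled triple knockout. *Eed* was lower (835 ± 159 against 476 ± 115, mean ± SD, n = 3, limma adjusted p = 0.0144), a call lost without control replicate 2 or labelled knockout replicate 1 or 3 (limma adjusted p = 0.0525, 0.0615 and 0.0546). *Rnf2*, which encodes Ring1b, was not called (967 ± 286 against 800 ± 115, limma adjusted p = 0.417). The table gives 1 value per gene, and RNA from outside a deleted part checks nothing. Every direction below is therefore that of the libraries labelled triple knockout against those labelled control. Changes are given as differences of log2(normalized count + 1) ± SE from limma, fitted to all 23006 genes with a mean of at least 10, with p-values adjusted over all of them by the Benjamini-Hochberg method and a threshold of 0.05.

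The 9 factors split into 4 that rose (*Grhl3*, *Zfp750*, *Grhl1* and *Klf4*), 4 that fell (*Ovol1*, *Trp63*, *Tfap2a* and *Klf5*) and 1 that did not pass (*Tfap2c*). Across all tested genes 20.5% were called higher, 15.3% lower and 35.8% in either direction, which is the background for each list count below. Changes of at least 2-fold were called upwards for 3 members and downwards for 3, against 15.5% of all genes upwards, 8.05% downwards and 23.6% in either direction. The control and labelled knockout libraries did not overlap for 8 of the 9 members, against 49.1% of all tested genes. The median log2 change of the members was −0.08, against 0.01 for all tested genes. Both the rising and the falling factors were well expressed: all 9 stood above 85.5% or more of the tested genes in mean normalized count, and none was near 0 in either group. With GC content and transcript length regressed out of each library the split became 3 higher and 5 lower, because *Klf4* was no longer called and *Tfap2c* was called lower. The median log2 change of all tested genes was −0.17 in that fit.

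**Figure D1:**
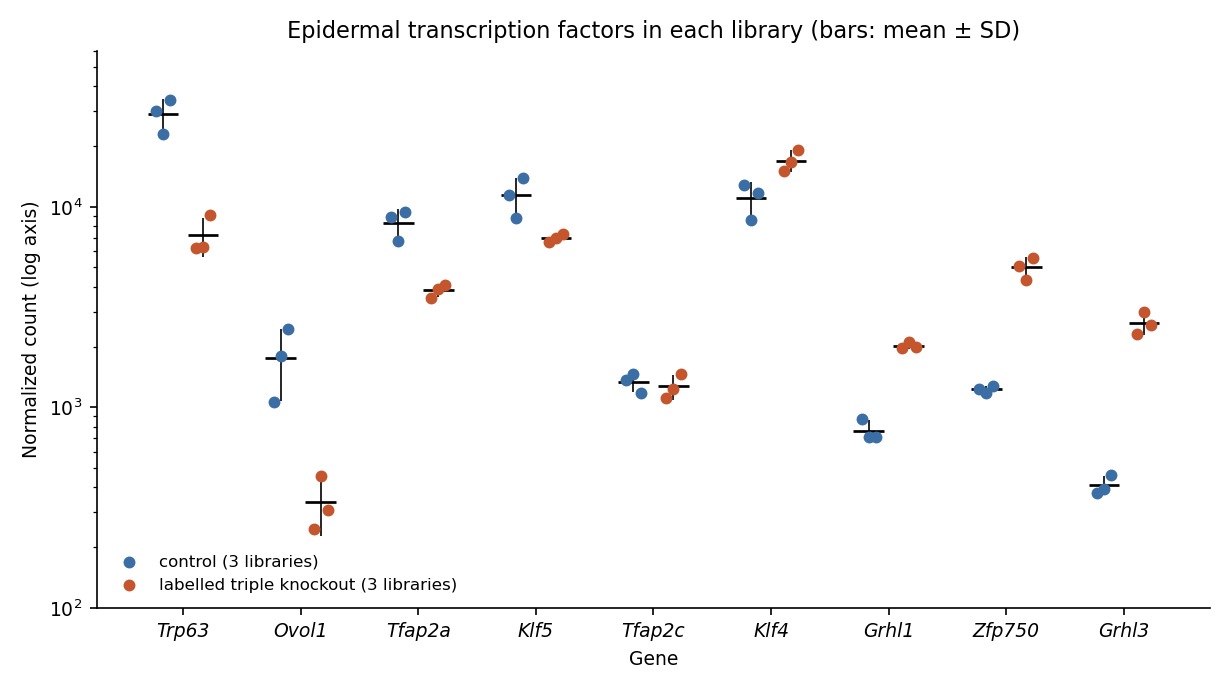
Normalized count (log axis) of each factor in each library, with control libraries in blue and libraries labelled triple knockout in orange; black bars are the mean ± SD of 3 libraries. The groups are apart for every gene except *Tfap2c*, with *Trp63*, *Ovol1*, *Tfap2a* and *Klf5* lower and *Klf4*, *Grhl1*, *Zfp750* and *Grhl3* higher in the labelled knockouts.

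*Trp63* (ENSMUSG00000022510.14, GRCm38 chromosome 16, 25683763 to 25892102) had 29968, 23002 and 33984 normalized counts in the controls, against 6251, 6296 and 9071 in the labelled knockouts. Every control library stood well above every labelled knockout library. The log2 change was −2.01 ± 0.19 (limma adjusted p = 6.5e-05), which corresponds to means 4.02-fold apart. The table sums all *Trp63* transcripts, so the full-length and the amino-terminally truncated forms of p63 could not be separated. Of the other genes of the family, *Trp73* (315 ± 48.0 against 453 ± 77.9, limma adjusted p = 0.0648) and *Trp53* (2410.4 ± 643 against 2596 ± 264, limma adjusted p = 0.619) did not pass. In bulk RNA of this kind, fewer cells of a type and less RNA per cell cannot be told apart.

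*Ovol1* (ENSMUSG00000024922.1, chromosome 19, 5549137 to 5560575), a zinc-finger repressor, had the steepest fall of the 9. It had 1067, 1794 and 2453 normalized counts in the controls, against 246, 453 and 307 in the labelled knockouts. The controls differed among themselves by more than 2-fold, the widest spread of any member (coefficient of variation 39.1%), and still did not overlap the other group. The log2 change was −2.36 ± 0.31 (limma adjusted p = 0.000447), and it lay between −2.99 and −2.09 over all alternatives. Its relative *Ovol2*, which holds epithelial cells back from mesenchymal transition, fell as well from a lower level, 71.9 ± 10.8 to 25.4 ± 2.34 (log2 change −1.46 ± 0.26, limma adjusted p = 0.00244). An exon of *Ovol1* overlaps the opposite-strand gene *Gm31166* by 690 bases. *Gm31166* held 0 to 43.6 normalized counts in the controls and 6.37 to 33.9 in the labelled knockouts, and the part of the overlap in the *Ovol1* values was not tested.

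*Tfap2a* (ENSMUSG00000021359.16, chromosome 13, 40715302 to 40738376) fell, and *Tfap2c* (ENSMUSG00000028640.11, chromosome 2, 172549593 to 172558622) did not pass. *Tfap2a* had 8847, 6733 and 9433 normalized counts in the controls, against 3522, 3879 and 4084 in the labelled knockouts, a log2 change of −1.11 ± 0.15 (limma adjusted p = 0.000494). *Tfap2c* had 1376, 1474 and 1182 against 1115, 1230.0 and 1474, so the groups overlapped almost entirely. Its log2 change was −0.08 with a 95% interval of −0.43 to 0.27 (limma adjusted p = 0.72), an interval that leaves room for a modest change either way. It passed as lower, at −0.48 (limma adjusted p = 0.0346), with GC content and transcript length regressed out, where the median of all tested genes was −0.17. It stood at 0.01 without labelled knockout replicate 1. Among the other AP-2 genes *Tfap2e* fell from 339 ± 61.0 to 143.0 ± 23.9 (limma adjusted p = 0.00194), whereas *Tfap2b* (4952 ± 486 against 4045 ± 859, limma adjusted p = 0.178) did not pass. It passed as lower without labelled knockout replicate 3 (limma adjusted p = 0.0497) and with GC content and transcript length regressed out (limma adjusted p = 0.00311). *Tfap2a* overlaps opposite-strand genes, of which *Gm47061* (304 to 349 normalized counts in the controls, 117 to 183 in the labelled knockouts) and *Gm26688* (115 to 151 and 48.0 to 82.6) had lower values in every labelled knockout library than in any control. The sources used here do not give the use of strand in counting, so reads of *Tfap2a* and of these genes cannot be told apart where they overlap.

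The pair of Krüppel-like factors moved in opposite directions. *Klf5* (ENSMUSG00000005148.8, chromosome 14, 99298691 to 99315036) had 11481, 8832 and 13945 normalized counts in the controls, against 6654, 6968 and 7290.1 in the labelled knockouts, a log2 change of −0.69 ± 0.17 (limma adjusted p = 0.0104). *Klf4* (ENSMUSG00000003032.8, chromosome 4, 55527143 to 55532466) had 12869, 8608 and 11759 against 15009, 16693 and 19253, which gave a log2 change of 0.63 ± 0.17 (limma adjusted p = 0.0177). Neither pair of groups overlapped, but these are the 2 smallest changes among the members that passed. The *Klf4* call is the least firm. With GC content and transcript length regressed out its log2 change turned to −0.29 (limma adjusted p = 0.153). The median of all tested genes was −0.17 in that fit. The call was also lost without labelled knockout replicate 2 or 3 (limma adjusted p = 0.0609 and 0.077) and without the variance trend and robust estimation (limma adjusted p = 0.07).

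*Klf4* is also an immediate early gene that responds to tissue dissociation, so 12 immediate early genes were set beside it. By limma 4 of them rose and 4 fell, and the median over the list was 0.08 on the log2 scale. Their summed level was 178058 to 246023 normalized counts in the controls and 199456 to 237477 in the labelled knockouts. *Fosb* rose from 12968 ± 1742 to 39358 ± 4470.3 and *Dusp1* from 7941 ± 1607 to 13274 ± 2238, while *Jun* fell from 21445 ± 3955 to 10875 ± 1331 and *Zfp36* from 38676 ± 6830 to 19556 ± 2891. The *Dusp1* call was lost with GC content and transcript length regressed out (0.33 on the log2 scale, limma adjusted p = 0.128). The part of these genes in the *Klf4* values was not tested.

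Of the other Krüppel-like genes with a mean of at least 10, *Klf12*, *Klf14*, *Klf15* and *Klf16* rose and *Klf2*, *Klf3* and *Klf11* fell, so the family as a whole had no common direction. *Klf3*, the most abundant of those that fell, went from 9454 ± 935 to 5891 ± 793 (log2 change −0.69 ± 0.14, limma adjusted p = 0.00441). *Klf12* rose from 311 ± 93.3 to 804 ± 111 (log2 change 1.40 ± 0.22, limma adjusted p = 0.00115) and *Klf14* from 19.2 ± 9.58 to 118 ± 25.9. *Klf6*, the Krüppel-like gene with the highest normalized count, did not pass (25332 ± 2900.0 against 21351 ± 972, limma adjusted p = 0.157). Across all 23 relatives of the members' families that were listed, 19 were tested, 4 rose and 6 fell, around a median of −0.07 on the log2 scale. The calls of *Klf2*, *Klf15* and *Klf16* were each lost under several alternatives, and that of *Klf11* without labelled knockout replicate 2.

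**Figure D2:**
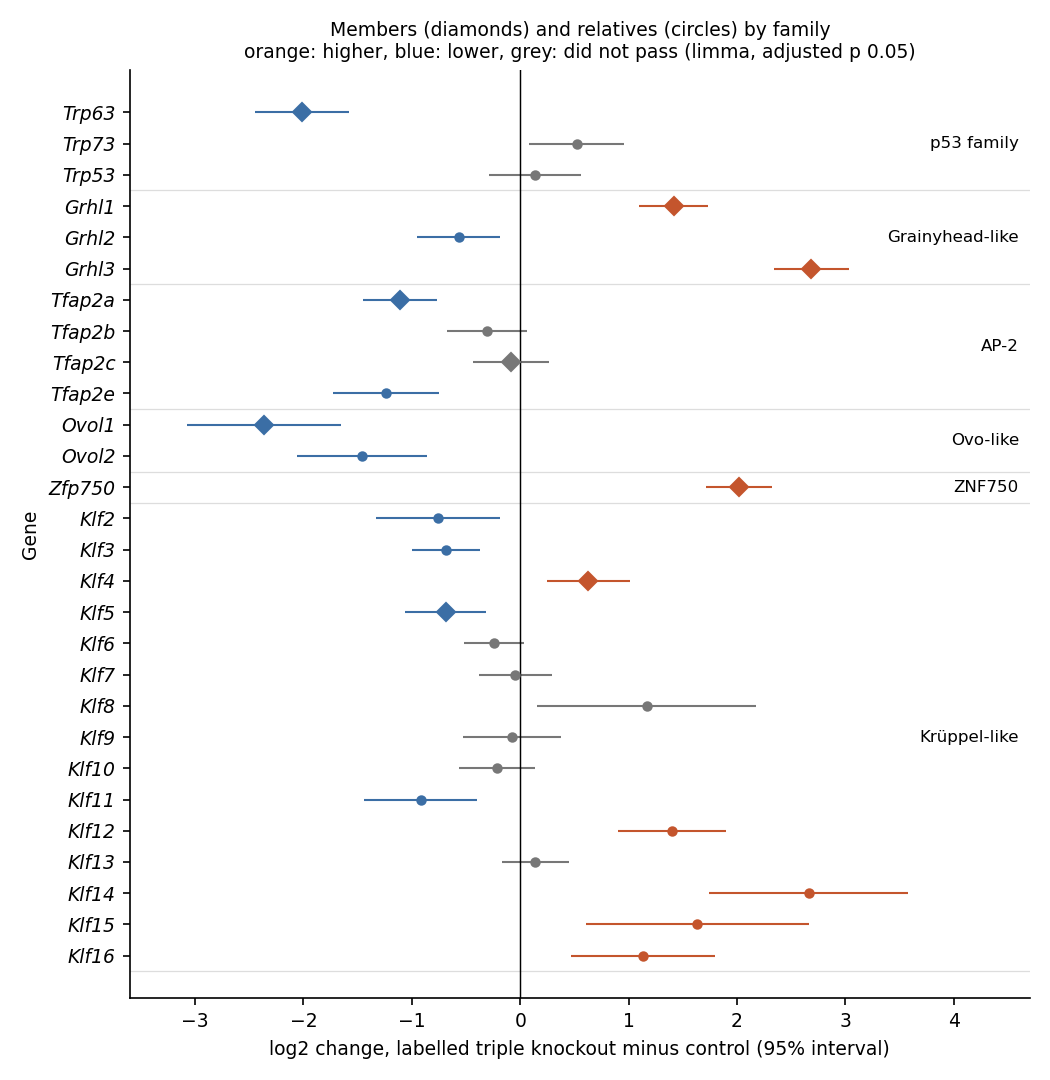
Log2 change (labelled triple knockout minus control, limma, with its 95% interval) of each member (diamonds) and each tested relative (circles), grouped by family. Orange marks genes that passed as higher, blue as lower and grey those that did not pass; the grainyhead-like and Krüppel-like families hold genes of both directions, with *Grhl3* at 2.68 and *Grhl2* at −0.57.

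The grainyhead-like factors *Grhl1* and *Grhl3*, which control desmosomal and barrier genes, both rose. *Grhl3* (ENSMUSG00000037188.7, chromosome 4, 135541888 to 135573630) had the steepest rise of the 9, from 372, 394 and 458 normalized counts in the controls to 2318, 2992 and 2586 in the labelled knockouts. The log2 change was 2.68 ± 0.15 (limma adjusted p = 4.35e-06), means 6.45-fold apart. *Grhl1* (ENSMUSG00000020656.16, chromosome 12, 24572283 to 24617391) rose from 878, 707 and 707 to 1982, 2107 and 1997, which gave a log2 change of 1.41 ± 0.14 (limma adjusted p = 7.99e-05). The labelled knockout libraries agree closely for *Grhl1*, with a coefficient of variation of 3.36%. *Grhl2*, the other gene of the family and a regulator of epithelial junctions, was lower, at 3046, 2918 and 2356 against 1590.5, 1780 and 2262 (log2 change −0.57 ± 0.17, limma adjusted p = 0.0261). The *Grhl2* call was lost without control replicate 1 or 2, without labelled knockout replicate 1 or 2, and without the variance trend and robust estimation (limma adjusted p = 0.0733 to 0.103), with the same sign in each.

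Set per kilobase of the longest coding transcript, the make-up of the grainyhead-like family changed. *Grhl2* held 60.3% ± 3.48 (SD, n = 3) of the family's summed level in the controls and 19.9% ± 3.04 in the labelled knockouts. *Grhl3* went from 15.9% ± 3.15 to 49.4% ± 2.83, and *Grhl1* from 23.7% ± 1.76 to 30.8% ± 2.07. With the median coding transcript length in place of the longest, *Grhl2* held 84.2% ± 1.94 and 46.7% ± 4.63 and *Grhl3* 6.14% ± 1.43 and 32.1% ± 3.25, so the shares depend on the length used while the direction does not. In the AP-2 family, *Tfap2a* went from 61.8% ± 4.69 to 48.3% ± 2.79 of the family sum per kilobase, and *Tfap2c* from 11.9% ± 2.48 to 18.7% ± 0.312. These shares were given no test.

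**Figure D3:**
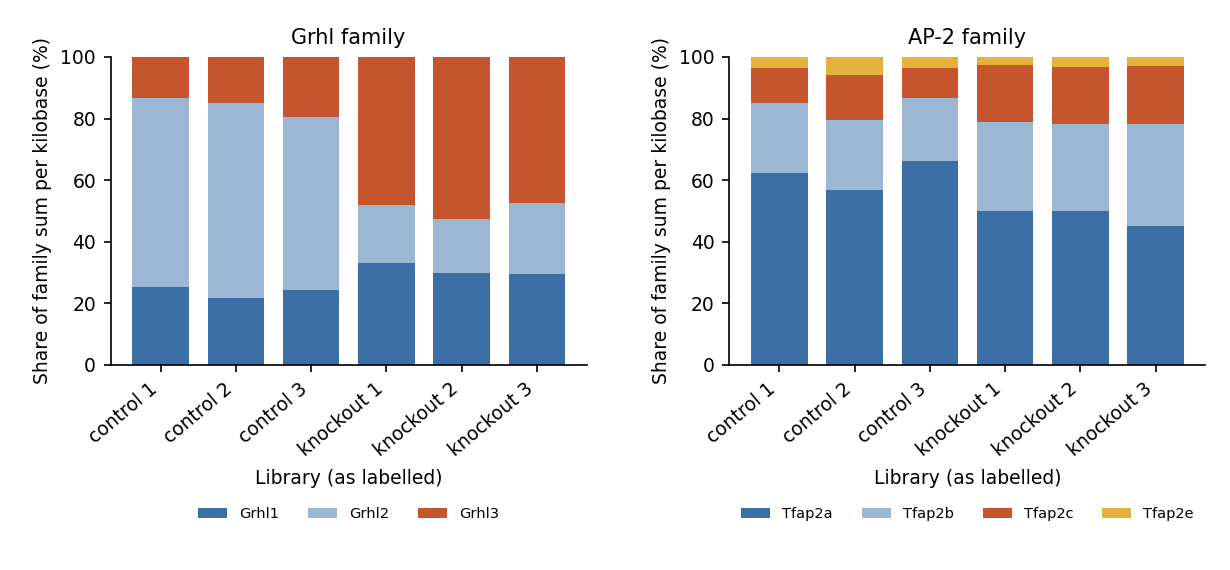
Share (%) of each gene in the summed level per kilobase of the longest coding transcript of its family, for each library; the left panel is the grainyhead-like and the right panel the AP-2 family. *Grhl3* makes up 13.3% to 19.5% of its family in the controls and 47.3% to 52.6% in the libraries labelled triple knockout.

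*Zfp750* (ENSMUSG00000039238.6, chromosome 11, 121510978 to 121519333), the mouse gene of the differentiation factor ZNF750 and a described p63 target, rose although *Trp63* fell. It had 1235, 1172 and 1280 normalized counts in the controls, against 5090, 4316 and 5570 in the labelled knockouts. The controls lay within a coefficient of variation of 4.39%, the tightest of any member in the controls. The log2 change was 2.01 ± 0.13 (limma adjusted p = 9.3e-06), close in size to that of *Trp63* and opposite in sign.

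Differences between 2 members within the same library do not depend on the scaling of the libraries, and transcript length cancels when the groups are compared. The difference *Klf4* minus *Klf5*, on the log2(normalized count + 1) scale, was 0.16, −0.04 and −0.25 for the controls, against 1.17, 1.26 and 1.40 for the labelled knockouts. The difference *Grhl3* minus *Grhl1* was −1.24, −0.84 and −0.63 against 0.23, 0.51 and 0.37. The difference *Tfap2c* minus *Tfap2a* was −2.68, −2.19 and −3.00 against −1.66, −1.66 and −1.47. In each of these 3 pairs the groups did not overlap, and the shifts were 1.32, 1.27 and 1.03. Effects of GC content need not cancel in such a difference. With GC content and transcript length regressed out, the log2 changes were −0.29 for *Klf4* and −0.89 for *Klf5*, closer together than in the main fit. They were 2.27 for *Grhl3* and 1.14 for *Grhl1*, and −0.48 for *Tfap2c* and −1.76 for *Tfap2a*. A two-sided exact permutation test, with 20 ways to assign the libraries, gave p = 0.1 for each, the lowest value such a design can reach, so none can pass a threshold of 0.05, and adjustment over the 3 pairs leaves 0.1.

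**Figure D4:**
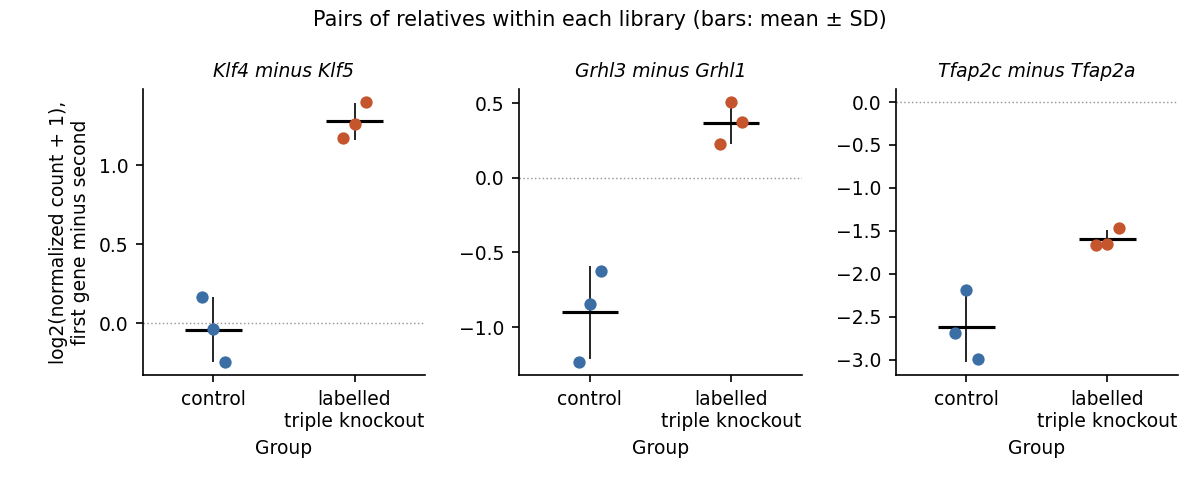
Difference of log2(normalized count + 1) between 2 related genes in the same library, for control (blue) and labelled triple knockout (orange) libraries, with mean ± SD of 3 libraries. Each pair is shifted upwards in the labelled knockouts, by 1.32 for *Klf4* minus *Klf5*, 1.27 for *Grhl3* minus *Grhl1* and 1.03 for *Tfap2c* minus *Tfap2a*.

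Per kilobase of the longest coding transcript, the order of the 9 in the controls was *Trp63* (5402 ± 1036 normalized counts per kilobase, n = 3), *Klf4* (3658 ± 730), *Klf5* (3407 ± 763), *Tfap2a* (2391 ± 407), *Ovol1* (596 ± 233), *Tfap2c* (450.2 ± 49.9), *Zfp750* (380.2 ± 16.7), *Grhl1* (220.4 ± 28.5) and *Grhl3* (146 ± 16.0). Neighbours whose libraries overlapped were *Klf4* and *Klf5*, *Klf5* and *Tfap2a*, *Ovol1* and *Tfap2c*, and, narrowly, *Tfap2c* and *Zfp750*. In the labelled knockouts *Klf4* stood first (5607 ± 706), followed by *Klf5* (2080 ± 94.9), *Zfp750* (1544 ± 196), *Trp63* (1343 ± 301), *Tfap2a* (1098 ± 81.6), *Grhl3* (944 ± 122), *Grhl1* (585 ± 19.7), *Tfap2c* (426 ± 61.4) and *Ovol1* (113 ± 35.7). There *Zfp750* and *Trp63* overlapped in range, as did *Trp63* and *Tfap2a* and *Tfap2a* and *Grhl3*. *Trp63* went from rank 1 to 4, *Ovol1* from 5 to 9 and *Grhl3* from 9 to 6. With the median coding transcript length *Klf4* had rank 1 in both groups and *Trp63* went from rank 2 to 3, so the top of the order depends on the length used.

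Spread within a group was not the same for all members. In the controls *Trp63*, *Klf4*, *Klf5*, *Tfap2a*, *Zfp750* and, by a very narrow margin, *Grhl1* were lowest in control replicate 2, where *Tfap2c* was highest. In the labelled knockouts *Trp63*, *Klf4*, *Klf5*, *Tfap2a*, *Tfap2c* and *Zfp750* were all highest in labelled knockout replicate 3. Ribosomal RNA was 22.5% of the normalized count in control replicate 2 and 31.4% in labelled knockout replicate 3, the lowest and the highest value of their groups; its part in these levels was not tested.

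Genes whose values followed each member most closely were sought among 12647 named genes with a mean of at least 50, by the root mean square difference of log2 values centred on each gene's mean over the 6 libraries. For *Trp63* these were the replication-dependent histone genes *Hist1h4c* (difference 0.09, 555 against 130.2 normalized counts) and *Hist1h2bj* (0.10). For *Tfap2a* they were *Terf2*, a telomere-binding protein (0.05), and the tubulin gene *Tuba1b* (0.06, 14479 against 6402 normalized counts). For *Grhl3* they were *Ltbp2* (0.09) and *Adamts18* (0.09), both of the extracellular matrix, and for *Zfp750* *Rnf150* (0.09) and *Baiap2* (0.10). The nearest genes to *Ovol1* were *Ogn* (0.12) and *Irf1* (0.23), an interferon regulator that went from 1794 to 275 normalized counts on average. *Klf5* had *Ufl1* (0.03) and *Megf9* (0.05), *Klf4* had *B4galt3* (0.05) and *Rabac1* (0.06), *Grhl1* had *Rnf5* (0.07) and *Hrc* (0.08), and *Tfap2c* had *Sh3rf2* (0.04) and *Sdk2* (0.05). With 6 libraries in 2 groups, such likeness is set mostly by the size of the difference between the groups.

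Genes described as targets of the members did not move as a block. Of 23 p63 targets, 13 fell and 4 rose, while 6 did not pass. The median of their log2 changes was −0.66, and the background was 15.3% of all tested genes lower and 20.5% higher. The fibroblast growth factor receptor gene *Fgfr3* fell from 2176 ± 689 to 384 ± 90.7. *Satb1*, a chromatin organizer, fell from 8743 ± 312 to 1619 ± 107 (log2 change −2.43 ± 0.12, limma adjusted p = 1.89e-06). Among the p63 targets that rose were *Zfp750* itself and the transcription factor *Runx1* (1530.3 ± 656 to 8764 ± 766, log2 change 2.59 ± 0.25, limma adjusted p = 6.9e-05).

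Of 21 tested differentiation and barrier genes described downstream of Klf4, Zfp750 or the Grhl factors, 9 rose, 6 fell and 6 were not called, and the median of their log2 changes was 0.25. *Abca12*, the lipid transporter of lamellar granules, rose from 391 ± 64.5 to 2273 ± 198 and *Cdsn*, which encodes corneodesmosin, from 38.7 ± 10.96 to 976 ± 199. *Ivl*, which encodes involucrin, rose from 13.1 ± 2.88 to 157 ± 6.17. In the other direction *Krt1*, a keratin of the spinous layer, fell from 25769 ± 4356 to 4416 ± 392 (log2 change −2.53 ± 0.15, limma adjusted p = 5.37e-06), and its partner *Krt10* from 16007 ± 4089 to 5455 ± 1246. *Dsg1a*, a desmosomal cadherin gene related to the described Grhl1 target, did not pass (5503 ± 1235 against 3954 ± 112, limma adjusted p = 0.0641), and it was called lower without control replicate 3 (limma adjusted p = 0.00126) and with GC content and length regressed out (limma adjusted p = 0.0143).

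Of 9 genes described as repressed by the Ovol factors, 2 rose and 2 fell, and the other 5 were not called (median 0.07 on the log2 scale). The background was 20.5% of all tested genes higher and 15.3% lower. The mesenchymal factor *Twist1* rose from 22.7 ± 14.0 to 219 ± 49.1 and *Cdh2*, N-cadherin, from 25.7 ± 6.14 to 70.0 ± 3.75, whereas *Myc* fell from 4087 ± 202 to 1270.1 ± 184 and *Snai2* from 2764 ± 380 to 930.2 ± 181. *Vim* did not pass (2173 ± 940 against 1596 ± 182, limma adjusted p = 0.381), but was called lower without control replicate 1 (limma adjusted p = 0.0256) and with GC content and length regressed out (limma adjusted p = 0.0279). Of 9 genes described as AP-2 targets, 3 rose and 4 fell (median 0.23 on the log2 scale), and 3 of the 4 that fell (*Krt5*, *Krt14* and *Itga6*) are p63 targets as well. The desmosomal cadherin *Dsc2* rose from 106 ± 18.2 to 2042 ± 270.4 (log2 change 4.25 ± 0.19, limma adjusted p = 1.28e-06), and *Erbb3* fell from 3853 ± 400.5 to 2364 ± 228. The epidermal growth factor receptor gene *Egfr* was higher by 0.47 ± 0.12 on the log2 scale (limma adjusted p = 0.015), a call lost without control replicate 1, without labelled knockout replicate 3, and without the variance trend and robust estimation (limma adjusted p = 0.0555, 0.0698 and 0.0734).

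**Figure D5:**
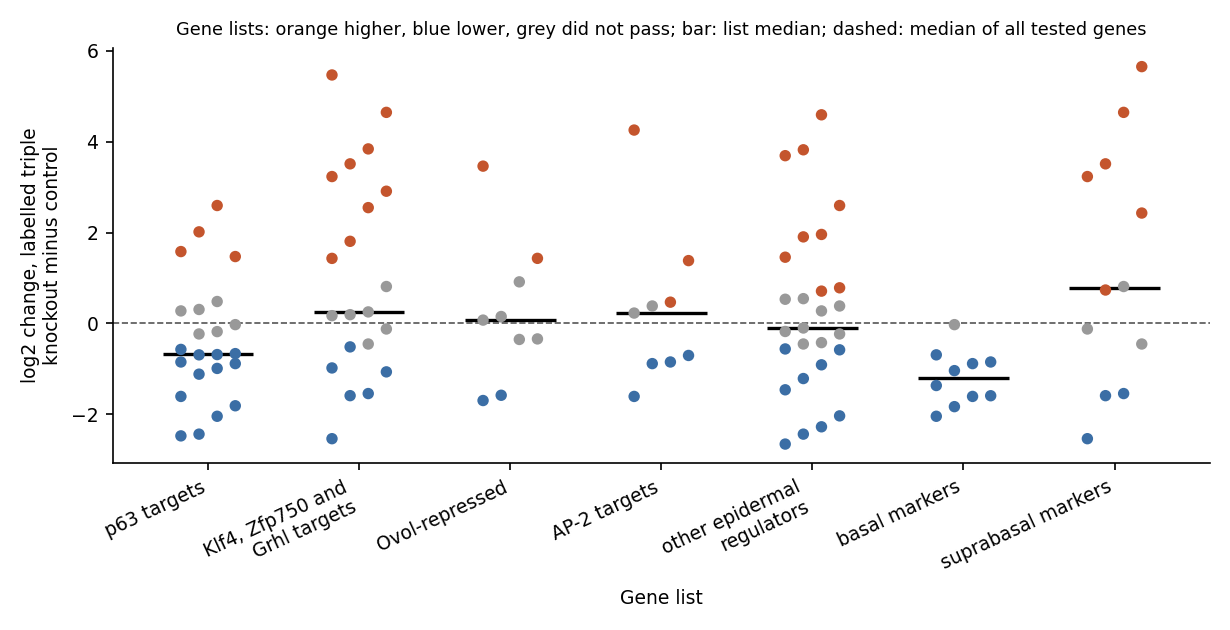
Log2 change (labelled triple knockout minus control) of each tested gene of 7 lists; orange genes passed as higher, blue as lower and grey did not pass. Black bars are list medians, from −1.20 for basal markers to 0.77 for suprabasal markers, and the dashed line is the median of all tested genes, 0.01. Genes shared between lists are drawn in each of them.

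Among 27 other transcription regulators of the epidermis the calls were balanced between the directions, as in the members, with 9 higher and 9 lower. A larger part than in the members, 9 genes, did not pass. Of all tested genes 20.5% were higher and 15.3% lower. Genes of the ETS family that are active in differentiating and glandular epithelia were among the risers: *Elf3* went from 30.1 ± 11.9 to 706 ± 13.4, *Ehf* from 93.9 ± 30.2 to 1300.5 ± 101 and *Elf5* from 51.1 ± 12.3 to 661 ± 70.8. *Pou2f3*, a suprabasal POU factor, fell from 3349 ± 367 to 537 ± 109, and *Bnc1*, the basal zinc-finger protein basonuclin, from 1063 ± 81.9 to 222 ± 42.2. With GC content and transcript length regressed out 16 of the 27 were lower.

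Markers of the layers and of other cell types moved in the same libraries. Most basal markers are also on the list of p63 targets, among them *Krt5*, *Krt14*, *Itga6* and *Col17a1*. Most suprabasal markers are also on the list downstream of Klf4, Zfp750 or the Grhl factors, among them *Krt1*, *Krt10*, *Ivl* and *Cdsn*. These marker counts therefore repeat genes counted above. Of 10 basal markers 9 fell and none rose by limma, and their summed level was 459179 to 588761 normalized counts in the controls and 232844 to 257800 in the labelled knockouts. One that fell was *Itga6*, which encodes the α6-integrin used to sort the cells, from 23785 ± 5486 to 7670 ± 212 (limma adjusted p = 0.000133). Whether the gate took the same cells in both groups was not tested. Of 12 suprabasal markers 6 rose and 3 fell, while their summed level, carried mostly by *Krt1* and *Krt10*, was 43858 to 62649 in the controls and 30499 to 31557 in the labelled knockouts. No basal or suprabasal marker was listed at 0 in every library of a group. *Tfap2a*, which fell, is also a factor of melanocytes, and a link between it and their markers was not tested. Among 8 melanocyte markers 7 rose, with a summed level of 402 to 579 against 1227 to 1857. The other, *Mitf*, did not pass (76.2 ± 39.9 against 94.2 ± 6.62, limma adjusted p = 0.382). Of 8 Merkel cell markers 6 rose (404 to 579.5 against 2869 to 3135 in sum), with the defining factor *Atoh1* listed at 0 in all labelled knockouts and in 2 of 3 controls. Hair follicle markers were 3 higher and 5 lower of 12, with a median log2 change of −0.41. Their summed level was 6968 to 10437 against 10475 to 12653. Much of that sum was *Sox9*, which rose from 3005 ± 680 to 7673 ± 524, so the sum does not speak for the list. The inner root sheath keratin *Krt25* was listed at 0 in all labelled knockouts.

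For cells that are not epithelial, 1 of 8 fibroblast markers rose and 1 fell, and their summed level was 8224 to 30810.1 normalized counts in the controls, highest in control replicate 3, and 9593 to 14885 in the labelled knockouts. Leaving out 1 library, 0 (without control replicate 2 or labelled knockout replicate 1 or 3) to 4 (without control replicate 1) of the fibroblast markers were lower, and 2 were higher without control replicate 3. Endothelial markers were 1 lower of 7 tested and summed to 374 to 798 against 440 to 605; 2 were lower without control replicate 1 and 0 without control replicate 2. Leukocyte markers were 1 higher of 5 tested and summed to 590.0 to 1184 against 1239 to 1516, and 2 were higher without control replicate 3. The marker that rose with all libraries was *H2-Ab1*, from 148 ± 87.9 to 737 ± 125. The other tested markers, *Ptprc*, *Itgam*, *Csf1r* and *Cd3g*, did not pass, and each overlapped between the groups. The Langerhans cell marker *Cd207* was listed at 0 in all controls and at only 1.78, 2.13 and 0.72 in the labelled knockouts, too low to be tested. The part of these cells in the members' values was not tested. Without control replicate 3 the 9 members gave 4 higher and 4 lower calls, as with all libraries.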

How the data were processed

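RNA-seq of 6 libraries (3 control, 3 labelled triple knockout, grouped by their titles and genotype labels) was analysed from the authors' deposited table. Its values are normalized counts per the file headers, a signal and not raw reads. Per the submitters' processing notes, the authors used kallisto 0.42.5 and DESeq2; the annotation, options and strand setting are not given in the sources used here. Only 25.9% to 42.6% of low values were whole multiples of 1 read to within 0.01, so reads could not be recovered, count models were not used and the depths (17.9 to 37.7 M reads per library, from the value of 1 read) are approximate. Coordinates are those of the table, and 98.4% of its genes had coordinates identical to GENCODE M21 (GRCm38), from which the build is named.

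Values were analysed as log2(normalized count + 1), a scale that understates changes of low genes. The 23006 genes averaging 10 or more across the libraries entered limma 3.58.1 (R 4.3.3), with trend and robust empirical Bayes and Benjamini-Hochberg adjustment. The test was also run on simulated data, but the outcome is not given here and does not vouch for the calls. Differences between relatives were given an exact permutation test over 20 assignments.

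The members, gene lists and tests were chosen with earlier results of these data known. The genes named are the members, the targeted genes, the relatives with a mean of at least 10, the 6 called genes of lowest p per list (immediate early genes included) and the 4 most abundant uncalled ones, and the 2 genes of most similar pattern for each member, apart from *Krt10*, *Flg*, *Atoh1*, *Cd207* and the genes overlapping a member, which were singled out after their values were seen. One listed gene, *Alox15b*, was not matched by name. The alternatives changed the pseudocount (0.5, 5), the filter (none, mean of 50 or more), the scaling (trimmed mean, quantile), the variance model (no trend or robust estimation), the design (a block for replicate number), GC content and length (regressed out with splines) or the libraries (each left out). Some listed genes are counted but not reported by name here.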

Additional observations from a re-analysis of the deposited data

How the results depend on the processing

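*Trp63*, *Klf5*, *Grhl1*, *Grhl3*, *Ovol1*, *Zfp750* and *Tfap2a* kept direction and call under all 15 alternatives; *Klf5* was nearest the threshold (largest limma adjusted p = 0.0496). With GC content and length regressed out, which like quantile scaling moved the median log2 change of all genes by −0.18, 3759 genes were higher and 5567 lower. *Klf4* turned to −0.29, *Tfap2c* stood at −0.48 and passed, *Trp53* at −0.42 and *Trp73* at −0.40. The shift of the median was not subtracted from these values. Counts in that fit were 2 family relatives higher, 16 other epidermal regulators lower, and 1 immediate early gene higher and 7 lower. Without trend and robust estimation *Klf4* (0.63) was not called, 1 AP-2 target was higher, and 2 immediate early genes were higher and 2 lower. With a mean of at least 50, 1 Ovol-repressed gene was higher, since fewer genes were tested. The cause of the other changes was not tested. Leaving out 1 library, log2 changes ranged from 0.46 to 0.75 for *Klf4*, from −0.19 to 0.0087 for *Tfap2c* and from −1.01 to −0.67 for *Eed*; counts ranged from 2 to 4 relatives higher and 3 to 6 lower, 1 to 4 AP-2 targets higher, and 2 to 6 immediate early genes higher and 2 to 5 lower. The *Eed* call was lost without control replicate 2 or labelled knockout replicate 1 or 3. Same-numbered libraries did not deviate together (correlations 0.061, −0.023 and 0.022), so no pairing by number was seen. With so few libraries a group, these correlations cannot exclude a pairing, and the labels do not state one. With the replicate block, 4761 genes were higher and 3345 lower, and 4 members rose and 4 fell. At 3 libraries a group, changes as small as that of *Tfap2c* could not be resolved.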
